A study of Mus musculus with 12 samples.

Results

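The Toll-like receptors Tlr1, Tlr2, Tlr3, Tlr4, Tlr6, Tlr7 and Tlr13 were followed together with Cd14 and Ly96, the accessory proteins of Tlr4, and the adaptor Myd88. These 10 genes were taken by symbol from 2 tables of raw counts per gene, and each symbol matched 1 row in both, among 32285 genes in the retina table and 55401 in the pericyte table. The libraries were bulk total RNA of wild-type mice (WT in the labels), 12 in 4 groups of 3. The first 2 groups were labelled retina cells on day 1 after ONC, read here as optic nerve crush, an injury that severs the axons of retinal ganglion cells. They had received phosphate-buffered saline (ONC+PBS) or small extracellular vesicles of mesenchymal stem cells (ONC+i.o.MSC.sEV), and no group is labelled as uninjured retina. The other 2 groups were labelled brain microvascular pericytes, the contractile cells that wrap capillaries, kept for 12 hours with PBS or with MSC.sEV. Strain, age and sex are not given in the sources used here, nor whether replicate libraries stand for separate mice or cultures, so the p-values measure the spread between these libraries, which may be technical. Retina columns carry short names that were read as ONC+PBS and ONC+i.o.MSC.sEV by inference. The names do not say that the control columns are crushed retina, so both the direction and the meaning of every retina difference rest on that reading.

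Toll-like receptors are membrane proteins that bind molecules typical of microbes or released by damaged cells. Tlr2 pairs with Tlr1 or Tlr6 at the cell surface to bind bacterial lipopeptides, and Tlr4 binds lipopolysaccharide when Ly96 (also called MD-2) sits on it and Cd14 hands the lipid over. Tlr3, Tlr7 and Tlr13 lie in endosomes and bind double-stranded RNA, single-stranded RNA and bacterial ribosomal RNA. Myd88 links every one of these receptors except Tlr3 to the kinases that activate NF-kB and AP-1, while Tlr3 signals through Ticam1 to IRF factors and NF-kB. In nervous tissue, microglia and incoming myeloid cells are known as main carriers of these receptors, and Tlr3 is also known from astrocytes.

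The coding sequences of Tlr1 and Tlr6 are shown first, because reads from their near-identical stretch cannot be assigned to either gene with certainty. In the GENCODE M21 transcripts the coding sequences are 72.2% identical over 2432 aligned columns and share an unbroken run of 229 bases. Capitals mark the base that differs in the bases around the start of this run, given 5′ to 3′ and numbered from the first coding base, 1438 to 1527 in Tlr1 and 1477 to 1566 in Tlr6.
Tlr1: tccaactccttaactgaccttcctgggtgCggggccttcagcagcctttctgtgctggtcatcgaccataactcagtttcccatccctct
Tlr6: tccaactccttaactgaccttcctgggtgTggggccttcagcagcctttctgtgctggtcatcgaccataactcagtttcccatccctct
The 2 lines differ at 1 base. Of the 50-base words in the annotated transcripts, 454 stand in both genes, among 3332 words of Tlr1 and 3702 of Tlr6. Words shared with any other gene made up 15.4% in Tlr1, 12.3% in Tlr6, 7.42% in Myd88 and 5.30% in Tlr3, and at most 0.216% in each of the other 6 genes. The words of Myd88 are shared with Acaa1a, which lies on the opposite strand and covers 290 of its 2576 exon bases, and those of Tlr3 with the antisense gene Gm45542, which covers 381 of 5207. No label states whether strand was kept in the library preparation, so reads in these overlaps are uncertain.

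Promoters of Tlr2, Tlr3 and Myd88 are shown because Tlr2 and Myd88 rose with vesicles in both tables and Tlr3 in the pericyte-labelled cells. They run from 250 bases before to 50 bases after the RefSeq gene start on GRCm38.p6, all on the minus strand, 5′ to 3′. Capitals mark matches on either strand to letters bound by the factors at the end of the pathway, namely the consensus of NF-kB, GAAANNGAA for the interferon response element of IRF and STAT factors, and TGANTCA for AP-1.
Tlr2, chr3:83841559-83841858: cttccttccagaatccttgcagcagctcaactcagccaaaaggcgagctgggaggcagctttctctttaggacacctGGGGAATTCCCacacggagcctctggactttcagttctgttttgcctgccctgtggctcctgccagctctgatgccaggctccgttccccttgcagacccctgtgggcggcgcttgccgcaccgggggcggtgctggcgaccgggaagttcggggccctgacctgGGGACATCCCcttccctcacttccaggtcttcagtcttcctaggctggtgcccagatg
Tlr3, chr8:45410331-45410630: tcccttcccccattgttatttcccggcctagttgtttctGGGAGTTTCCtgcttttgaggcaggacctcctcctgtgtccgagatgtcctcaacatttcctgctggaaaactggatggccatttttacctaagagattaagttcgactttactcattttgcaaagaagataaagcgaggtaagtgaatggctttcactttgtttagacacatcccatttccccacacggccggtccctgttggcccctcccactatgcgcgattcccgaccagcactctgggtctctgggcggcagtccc
Myd88, chr9:119339969-119340268: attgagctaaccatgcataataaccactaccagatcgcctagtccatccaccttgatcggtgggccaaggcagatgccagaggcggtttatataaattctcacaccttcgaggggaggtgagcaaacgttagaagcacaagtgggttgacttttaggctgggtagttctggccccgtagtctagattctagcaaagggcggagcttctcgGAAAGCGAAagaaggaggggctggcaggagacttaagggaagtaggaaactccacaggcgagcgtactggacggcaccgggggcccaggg
Tlr2 held the NF-kB consensus in an overlapping cluster from 173 bases before the start and again 8 bases before it, and Tlr3 held it 211 bases before. The consensus stands in 4.51% of 32851 RefSeq promoters of this length. Myd88 held the interferon response letters 40 bases before the start, a pattern found in 8.56% of promoters. AP-1 letters, present in 7.81% of promoters, were in none of the 3 windows. A match describes the letters only. RefSeq promoters were matched for 6 of the 10 genes, and the deposited tables name no genome build. Cd14, which also rose in both tables, had no matched promoter. The windows not shown are those of Tlr1, Tlr6 and Tlr13, which rose in the retina. Neither Tlr1 nor Tlr13 held a match in any window. For Tlr6, the window at chr5:64959117-64959416 held interferon response letters 115 and 109 bases before the start, and its other window held none.

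The retina libraries held 15580024 to 16842926 counts each, and the pericyte-labelled libraries 33001248 to 37954077. A count of 3 in 1 library corresponded to 0.180 to 0.196 CPM (the count scaled to a library of 1000000) in the retina and 0.0777 to 0.0894 CPM in the other table. Rod genes, those of the most numerous retinal cell, summed to 92506 to 97417 CPM in PBS retina and 62300 to 75600 CPM in vesicle retina. Lens genes took 0.0519% to 0.583% of counts in PBS retina and 0.00950% to 6.72% in vesicle retina, so the results below were also computed without the library richest in lens counts in each group. Of the 10 pericyte markers in the cells labelled pericytes, Acta2 (572 CPM) and Pdgfrb (59.7 CPM) were well above the floor with PBS. Notch3 (25.0 CPM), Cspg4 (11.8 CPM), Anpep (5.97 CPM) and Vtn (3.93 CPM) were above it too. Rgs5 was at 0.283 CPM, Kcnj8 at 0.0792 CPM and Abcc9 and Des were listed at 0. Some astrocyte and oligodendrocyte-lineage markers were also high in these libraries, with Aqp4 at 477, Gfap at 214 and Olig1 at 208 CPM, though Sox10 was at 0.0189 CPM. Because of this mixture of markers the cells are called pericyte-labelled here. The defining leukocyte gene Ptprc (CD45) was at 0.0518 to 0.386 CPM in them with PBS.

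With vesicles, 7 of the 10 genes rose in the crushed retina and 0 fell, and 4 of the 10 rose in the pericyte-labelled cells and 0 fell. The calls are from edgeR's quasi-likelihood test at Benjamini-Hochberg adjusted p under 0.05 over all tested genes, of which 15.9% were called in the retina (10.7% higher and 5.19% lower) and 19.8% in the pericyte-labelled cells (10.9% higher and 8.9% lower). All 10 genes passed the low-count filter in both tables. Their median log2 fold change was 3.02 in the retina, against -0.015 over all tested genes, and 0.29 in the pericyte-labelled cells, against 0.00056. Tlr2, Cd14 and Myd88 rose in both tables. Tlr1, Tlr4, Tlr6 and Tlr13 were called in the retina and not in the pericyte-labelled cells, and Tlr3 was called in the pericyte-labelled cells and not in the retina. In bulk RNA, more cells of a type and more RNA per cell cannot be told apart.

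**Figure D1:**
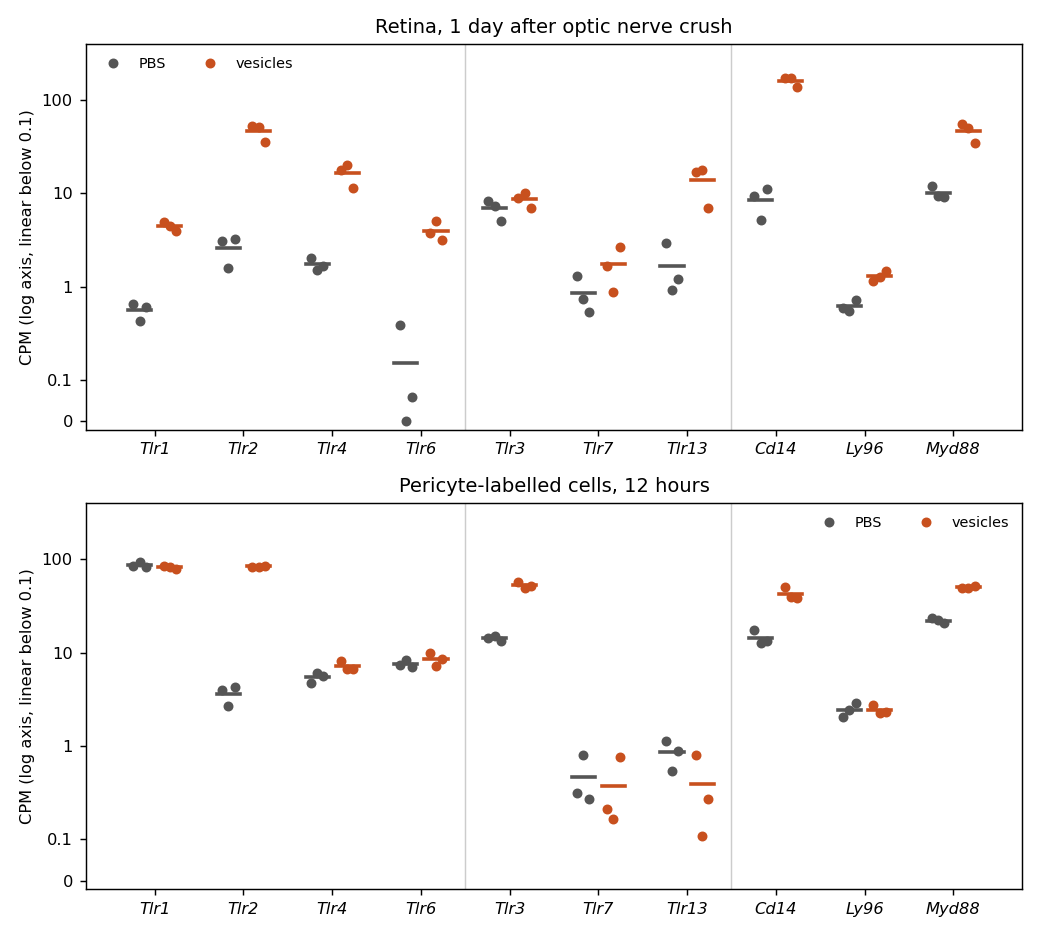
CPM of the 10 genes in every library, retina above and pericyte-labelled cells below, on a log axis that is linear below 0.1 CPM, with bars at group means and grey lines between surface receptors, endosomal receptors and accessory or adaptor genes. In the retina, PBS and vesicle libraries overlap only for Tlr3 and Tlr7, and in the pericyte-labelled cells Tlr2 stands at 2.70 to 4.24 (PBS) and 83.4 to 85.2 CPM (vesicles).

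Among the surface receptors in the retina, Tlr2 was at 3.06, 1.58 and 3.24 CPM in the PBS libraries and 52.7, 51.1 and 35.5 CPM in the vesicle libraries. The groups lay far apart, with the lowest vesicle library above the highest PBS library by more than the spread within either group. The log2 fold change, also given as log2 change, was 4.14 ± 0.28 (SE), a 17.6-fold rise (n = 3 libraries per group, edgeR adjusted p = 0.00012). Tlr4, the lipopolysaccharide receptor, was at 2.02, 1.52 and 1.68 (PBS) and 17.9, 20.1 and 11.5 CPM (vesicles). It rose 9.46-fold (log2 change 3.24 ± 0.26, adjusted p = 0.00012), again with no overlap. Of all tested genes, 35.7% had no overlap between the retina groups.

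Tlr1 and Tlr6, the partners of Tlr2, were close to the detection floor in PBS retina. Tlr1 had 10, 7 and 10 counts (PBS) and 78, 71 and 64 (vesicles), or 0.559 ± 0.119 and 4.46 ± 0.509 CPM (SD, n = 3). Its log2 fold change was 2.98 ± 0.33 (adjusted p = 0.00047). Tlr6 had 6, 0 and 1 counts (PBS) and 59, 80 and 51 (vesicles). Its log2 fold change was 4.70 ± 0.69 (adjusted p = 0.0023), a size that rests on few PBS counts, most of them in PBS library 1. Without that library the log2 fold change of Tlr6 was 6.72, and without the lens-rich libraries it was 6.52.

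Tlr2 rose in the pericyte-labelled cells as well, from 3.97, 2.70 and 4.24 CPM with PBS to 83.4, 83.6 and 85.2 CPM with vesicles. This was a 23.0-fold rise (log2 change 4.52 ± 0.11, edgeR adjusted p = 1.0e-17), and the 3 vesicle libraries lay within 2 CPM of each other. Tlr1 was not called. It was already at 85.4, 93.1 and 83.8 CPM with PBS and stood at 85.0, 83.2 and 78.5 CPM with vesicles, groups that overlapped (log2 fold change -0.09 ± 0.06, adjusted p = 0.39, 95% interval -0.22 to 0.04). Tlr6, the close copy of Tlr1, was at 7.57 ± 0.614 (PBS) and 8.57 ± 1.27 CPM (vesicles) (log2 change 0.18 ± 0.14, adjusted p = 0.45). Tlr4 was at 4.77, 6.0 and 5.61 (PBS) and 8.23, 6.67 and 6.70 CPM (vesicles). The 2 groups of Tlr4 values did not overlap, which held for 33.8% of all tested genes in this table, but the difference missed the threshold (log2 change 0.40 ± 0.15, adjusted p = 0.078).

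Of the endosomal receptors, Tlr13 was called in the retina. It was at 2.93, 0.911 and 1.20 (PBS) and 17.1, 17.7 and 7.03 CPM (vesicles) (log2 change 3.05 ± 0.53, edgeR adjusted p = 0.0098), and without PBS library 1 its log2 fold change was 3.71. Vesicle library 3 was the lowest of its group by a wide margin, yet above all PBS libraries. Tlr3, the receptor of double-stranded RNA, was at 8.35, 7.35 and 5.10 (PBS) and 9.04, 9.98 and 7.03 CPM (vesicles), with overlap (log2 fold change 0.33 ± 0.24, adjusted p = 0.40, 95% interval -0.21 to 0.86). Tlr7 had 20, 12 and 9 counts (PBS) and 26, 14 and 43 (vesicles). Those groups overlapped too, and its wide interval (log2 fold change 1.02, 95% interval -0.11 to 2.14, adjusted p = 0.21) holds values on both sides of no change, which these libraries could not tell apart.

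In the pericyte-labelled cells the order was different. Tlr3 rose from 14.5, 15.1 and 13.3 CPM with PBS to 56.5, 49.2 and 52.0 CPM with vesicles, 3.68-fold (log2 change 1.88 ± 0.08, edgeR adjusted p = 3.6e-13), with every vesicle library above every PBS library. The antisense gene that overlaps Tlr3 was not among the tested genes of either table. Tlr7 and Tlr13 were near the floor. Tlr7 had 12, 27 and 10 counts (PBS) and 7, 6 and 28 (vesicles), and Tlr13 had 44, 18 and 33 with PBS and 27, 4 and 10 with vesicles. Neither passed the threshold (adjusted p = 0.84 for Tlr7 and 0.22 for Tlr13), although without vesicle library 1 Tlr13 was called lower (log2 change -2.16, adjusted p = 0.027).

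Cd14 had the highest level per length of the 10 genes in vesicle-treated retina. This lipid-binding co-receptor was at 9.45, 5.16 and 11.0 (PBS) and 170.7, 170.7 and 137 CPM (vesicles), an 18.6-fold rise (log2 change 4.22 ± 0.28, edgeR adjusted p = 0.00029). Cd14 in the pericyte-labelled cells rose from 17.3, 12.6 and 13.2 CPM to 50.9, 39.3 and 38.3 CPM, 2.97-fold (log2 change 1.57 ± 0.12, adjusted p = 2.7e-09). The groups did not overlap in either table. Ly96, the other accessory protein of Tlr4, was not called in either. It had 9, 9 and 12 counts in PBS retina and 18, 20 and 24 in vesicle retina, groups that did not overlap (log2 change 1.06 ± 0.38, adjusted p = 0.090). Ly96 in the pericyte-labelled cells was at 2.44 ± 0.434 (PBS) and 2.42 ± 0.253 CPM (vesicles) (log2 fold change -0.01 ± 0.24, 95% interval -0.51 to 0.49, adjusted p = 0.99).

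Myd88, the adaptor shared by these receptors other than Tlr3, rose in both tables. In the retina it was at 12.1, 9.29 and 9.06 (PBS) and 54.9, 50.3 and 34.9 CPM (vesicles), a 4.61-fold rise (log2 change 2.20 ± 0.19, edgeR adjusted p = 0.00017). Myd88 in the pericyte-labelled cells rose from 23.2, 22.2 and 20.8 CPM to 49.6, 49.4 and 51.4 CPM, 2.27-fold (log2 change 1.18 ± 0.08, adjusted p = 1.5e-10). Acaa1a, a peroxisomal thiolase whose exons overlap those of Myd88, was at 58.6 ± 2.64 CPM in PBS retina and 59.0 ± 6.15 CPM in vesicle retina (log2 change 0.01, adjusted p = 0.95). Acaa1a in the pericyte-labelled cells rose from 61.9 ± 4.18 to 89.3 ± 6.25 CPM (log2 change 0.53, adjusted p = 6.8e-06), a smaller change than that of Myd88, and its part in the Myd88 count was not tested.

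**Figure D2:**
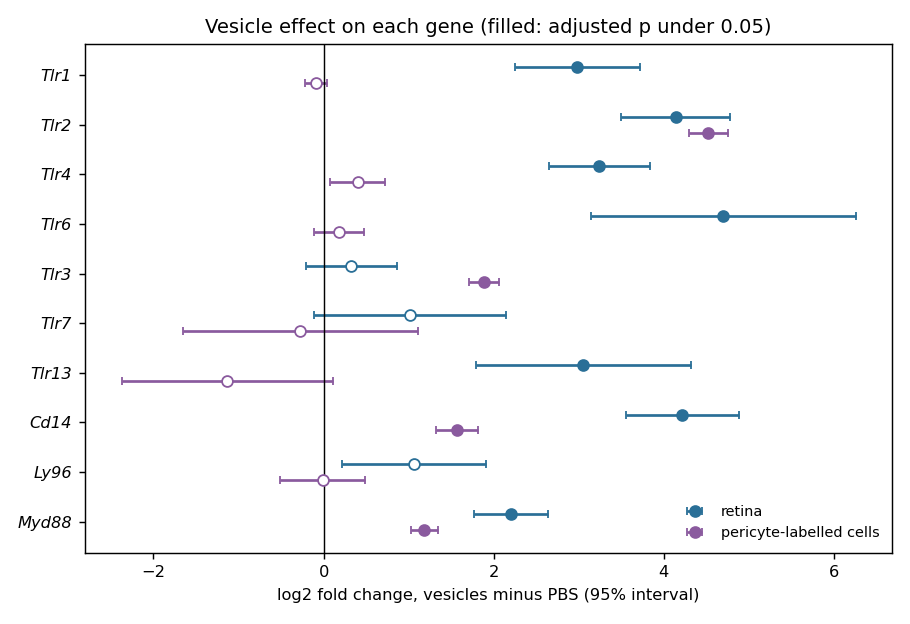
Log2 fold change of each gene, vesicles minus PBS, with its 95% interval, in the retina (blue) and the pericyte-labelled cells (purple), filled where the edgeR adjusted p was under 0.05. The intervals of the 2 tables overlap for Tlr2, Tlr7 and Ly96 and lie apart for Tlr1, Tlr4, Tlr6, Tlr3, Tlr13, Cd14 and Myd88.

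The difference between the vesicle effects was tested gene by gene with limma (voom), as retina minus pericyte-labelled cells, over the 13712 genes tested in both tables, of which 12.1% were called, 7.44% with the larger effect in the retina and 4.68% with the smaller. The difference was called for 7 of the 10 genes. Tlr6 (5.05 ± 0.71 on the log2 scale, adjusted p = 0.00041), Tlr13 (4.58 ± 0.95, adjusted p = 0.0048), Tlr1 (3.03 ± 0.43, adjusted p = 0.00041), Tlr4 (2.79 ± 0.41, adjusted p = 0.00049) and Cd14 (2.71 ± 0.32, adjusted p = 0.00012) had the larger effect in the retina. Myd88 did so by a smaller margin (1.00 ± 0.23, adjusted p = 0.010), a call lost without retina PBS library 2 (0.95, adjusted p = 0.051). The difference of Tlr6 was 6.06 without retina PBS library 1, 4.16 without retina PBS library 2 and 4.38 with limma trend in place of voom, and that of Tlr13 was 5.27 without pericyte vesicle library 1 and 3.93 without pericyte vesicle library 2. Tlr3 had the larger effect in the pericyte-labelled cells (-1.54 ± 0.26, adjusted p = 0.0012). For Tlr2 the difference was -0.37 with a 95% interval from -1.23 to 0.49 (adjusted p = 0.63), and for Ly96 and Tlr7 it was 1.03 (95% interval -0.02 to 2.07) and 1.35 (-0.55 to 3.25), neither called. The Tlr7 difference was 2.02 without pericyte vesicle library 3 and 2.10 without the lens-rich libraries. The tables also differ in tissue, time after treatment, route and depth, so these differences cannot be told apart from any of those.

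Levels were set side by side within each table as CPM per kilobase of GENCODE M21 exon sequence. In PBS retina Cd14 (4.94 ± 1.76) and Myd88 (3.94 ± 0.648) led, with overlapping libraries, followed by Tlr3 (1.33 ± 0.319), Tlr2 (0.872 ± 0.303) and Ly96 (0.605 ± 0.0889), each overlapping the next. Tlr13, Tlr4, Tlr7 and Tlr1 lay between 0.391 and 0.167, and Tlr6 was the lowest at 0.0404. In vesicle retina Cd14 stood alone at 92.0 ± 11.3 CPM per kilobase, and Myd88 (18.1 ± 4.07) and Tlr2 (15.4 ± 3.15) overlapped behind it. Tlr13, Tlr4, Tlr3, Tlr1, Ly96 and Tlr6 then lay between 3.23 and 1.07, and Tlr7 was the lowest at 0.424.

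The order in the pericyte-labelled cells was led by Tlr1 with PBS, at 26.1 ± 1.5 CPM per kilobase, above Myd88 (8.57 ± 0.481) and Cd14 (8.30 ± 1.49), whose libraries overlapped. Tlr3 (2.74 ± 0.175), Ly96 (2.39 ± 0.425) and Tlr6 (2.03 ± 0.165) followed, and Tlr2 (1.21 ± 0.272) and Tlr4 (0.983 ± 0.113) overlapped below them. With vesicles Tlr2 (27.9 ± 0.318), Cd14 (24.7 ± 4.04) and Tlr1 (24.6 ± 1.01) made up the top, and Tlr2 lay above every Tlr1 library. Myd88 (19.5 ± 0.439) and Tlr3 (10.1 ± 0.706) came next, and Tlr7 and Tlr13, at 0.0920 and 0.0916, were the lowest.

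Markers of leukocytes moved with the receptors in the retina. Of 17 leukocyte and myeloid genes, 14 were called higher and 0 lower, and their summed level was 196 to 249 CPM in the PBS libraries and 946 to 1395 CPM in the vesicle libraries. Over all tested genes, 10.7% were called higher and 5.19% lower. All 9 neutrophil genes were called higher (14.3 to 26.9 CPM summed with PBS, 404 to 880 with vesicles), as were 5 of 6 monocyte genes (13.3 to 34.6 and 164 to 270 CPM). Of 9 homeostatic microglia genes, 1 was called higher and 4 lower (80.2 to 82.5 and 55.1 to 177 CPM). None of the markers in these 4 lists was at 0 in all retina libraries. Their part in the rise of the receptors was not tested.

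Counts were also set beside those of Ptprc, the pan-leukocyte gene, as a description with no test. Tlr2 had 95.9, 78.8 and 132 counts per 100 Ptprc counts in PBS retina and 147, 140 and 145 in vesicle retina. Cd14 had 296, 258 and 449 with PBS and 475, 468 and 558 with vesicles. These 2 genes lay higher beside Ptprc with vesicles, without overlap, but the PBS values divide by only 49, 33 and 41 Ptprc counts. The gaps between the nearest libraries were small, 132 against 140 for Tlr2 and 449 against 468 for Cd14. How many of all tested genes lay higher beside Ptprc was not counted. Tlr6 (0 to 12.2 with PBS, 10.4 to 13.9 with vesicles) and Tlr13 (45.5 to 91.8 and 28.6 to 48.5) overlapped between the groups. Tlr4 (63.3 to 75.8 and 47.0 to 55.1) and Tlr1 (20.4 to 24.4 and 12.3 to 16.1) lay somewhat lower with vesicles. Tlr3, whose CPM was not called different, stood at 207 to 367 with PBS and 25.1 to 28.6 with vesicles. Myd88 (368 to 464 and 138 to 153), Ly96 (18.4 to 29.3 and 3.19 to 6.03) and Tlr7 (22.0 to 40.8 and 2.43 to 10.8) were lower too. Ptprc itself rose in the retina (log2 change 3.66 ± 0.23, edgeR adjusted p = 4.0e-05), so a gene that rose less lies lower beside it. Lower values here do not mean a fall in CPM.

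**Figure D3:**
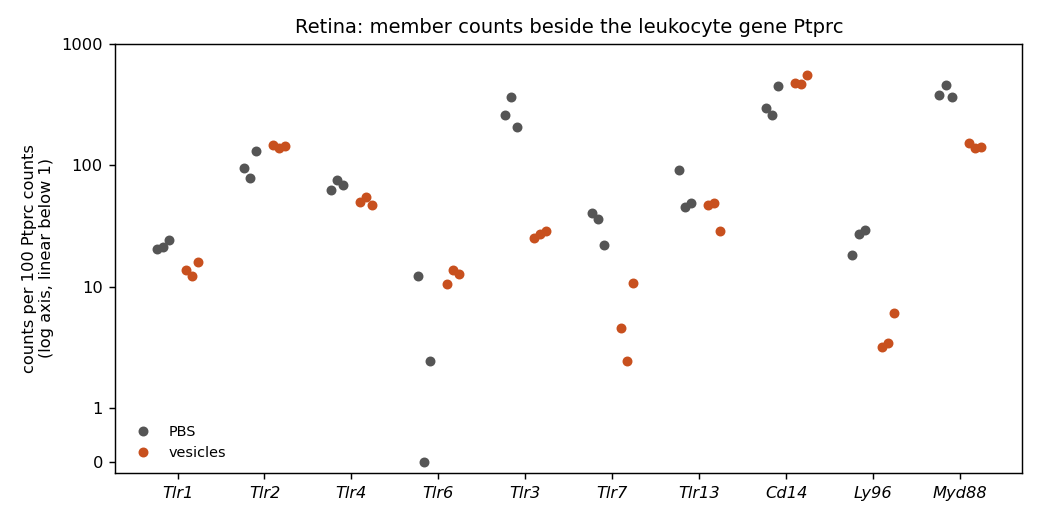
Counts of each gene per 100 counts of Ptprc in the 3 PBS (grey) and 3 vesicle (orange) libraries of the retina, on a log axis that is linear below 1. Tlr2 and Cd14 sit higher in the vesicle libraries, Tlr6 and Tlr13 overlap, and the other 6 genes sit lower. Ptprc itself rose with vesicles and had only 33 to 49 counts in the PBS libraries.

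Within the vesicle retina group, library 3 held the lowest CPM for 8 of the 10 genes and also the lowest Ptprc (24.5 CPM, against 36.0 and 36.4). Within the PBS retina group, library 2 was the lowest for 7 of the 10 and had the lowest Ptprc (2.00 CPM, against 3.19 and 2.46). How often the other tested genes were lowest in these same libraries was not counted, and each group holds only 3 libraries. Over the 6 retina libraries, the genes whose centred log2 CPM lay closest to that of Tlr2 among 14450 genes were Cd14 (root mean square difference 0.099), Gbp10 (0.11), a guanylate-binding protein with close copies, and Msr1 (0.13), a macrophage scavenger receptor. Those closest to Myd88 were Vcam1 (0.10), an adhesion molecule for leukocytes, Chl1 (0.10), a neural cell adhesion molecule, and Cd52 (0.10), a surface glycoprotein of leukocytes. These measures rest mainly on the difference between the 2 groups, which many genes share.

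Fewer leukocyte markers were called in the pericyte-labelled cells, where 10.9% of all tested genes were called higher and 8.9% lower. Of the 17 leukocyte and myeloid genes, 4 were called higher and 0 lower, with a summed level of 102 to 112 (PBS) and 109 to 164 CPM (vesicles), most of it Lyz2 (71.8 and 92.8 CPM). Ptprc rose from 0.0518, 0.386 and 0.324 CPM to 1.22, 1.07 and 1.10 CPM (log2 change 2.16 ± 0.56, edgeR adjusted p = 0.0085). Tlr2 with vesicles was at 84.1 ± 0.960 CPM beside this 1.13 ± 0.0813 CPM of Ptprc, and in vesicle retina the 2 genes stood at 46.4 ± 9.48 and 32.3 ± 6.73 CPM. Of 9 homeostatic microglia genes, 0 were called higher and 1 lower (511 to 550 CPM summed with PBS and 465 to 492 with vesicles), and Siglech was at 0 in all libraries. Of 9 neutrophil genes, S100a9, Cxcr2, Retnlg and Ly6g were at 0 in all libraries, 1 gene (Mmp9) was called higher, and the sum was 1.81 to 2.76 (PBS) and 4.81 to 6.20 CPM (vesicles). Of 6 monocyte genes none was called, with sums of 1283 to 1397 and 1202 to 1489 CPM that were nearly all Fn1, which fibroblasts and astrocytes also make, and Ccr2 was at 0 in all libraries. The part of leukocytes in these changes was not tested.

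Of 44 other genes of the pathway, 38 were tested in the retina and 14 were called higher and 2 lower, while 37 were tested in the pericyte-labelled cells and 15 were called higher and 0 lower. Over all tested genes, 10.7% were called higher and 5.19% lower in the retina, and 10.9% and 8.9% in the pericyte-labelled cells. These shares stand beside every list below, and short lists hold too few genes to be set against them. The other Toll-like receptors were scarce. In the retina Tlr8, a neighbour of Tlr7 that binds RNA, was the only 1 of the 5 to be tested, and it was at 0.283 ± 0.489 (PBS) and 1.52 ± 0.700 CPM (vesicles) (adjusted p = 0.19). It was called higher without PBS library 1 (log2 change 7.62, adjusted p = 0.012), without the lens-rich libraries (log2 change 7.54, adjusted p = 0.029) and with limma voom (log2 change 3.93, adjusted p = 0.048). None of Tlr5, Tlr8, Tlr9, Tlr11 and Tlr12 passed the low-count filter in the pericyte-labelled cells, and Tlr11 was at 0 in all libraries of both tables.

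Among the proteins that hand over ligands or traffic the receptors, 2 of 8 tested in the retina were higher and 1 was lower (median log2 fold change -0.05). Unc93b1, which carries endosomal receptors out of the endoplasmic reticulum, rose from 3.40 ± 0.447 to 10.9 ± 1.57 CPM (log2 change 1.68 ± 0.22, edgeR adjusted p = 0.0011). Lbp, the lipopolysaccharide-binding protein, rose from 0.368 ± 0.150 to 2.61 ± 1.80 CPM (adjusted p = 0.024), and Cd36, a scavenger receptor that works with Tlr2 and Tlr6, fell from 5.64 ± 0.520 to 2.91 ± 0.269 CPM (adjusted p = 0.023). Neither call survived leaving out any 1 of PBS libraries 1 and 2 and vesicle libraries 1 and 2 (adjusted p of 0.0504 to 0.103). The Cd36 call was also lost when PBS library 3 was left out (0.0655), and the Lbp call with limma voom (0.101). Without the lens-rich libraries neither was called (0.0834 for Cd36 and 0.161 for Lbp, whose log2 change was then 2.08). The chaperone Cnpy3 was at 67.9 ± 5.08 and 56.3 ± 1.86 CPM (adjusted p = 0.082). In the pericyte-labelled cells 2 of 6 tested were higher and 0 lower (median log2 fold change 0.11). Lbp rose from 1089 ± 29.1 to 1491 ± 66.2 CPM (log2 change 0.45 ± 0.06, adjusted p = 4.6e-06) and Unc93b1 from 15.3 ± 0.746 to 23.2 ± 1.55 CPM (log2 change 0.60 ± 0.09, adjusted p = 7.2e-05). Cd36 was at 30.1 ± 3.32 and 25.1 ± 3.18 CPM (adjusted p = 0.077), and it was called lower when PBS library 1 (adjusted p = 0.025) or vesicle library 1 (adjusted p = 0.0074) was left out, and with no low-count filter (adjusted p = 0.029). Tril, a partner of Tlr3 and Tlr4, was at 12.7 ± 0.906 and 14.4 ± 1.06 CPM (adjusted p = 0.29).

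Downstream of the receptors, 9 of 22 tested adaptors, kinases and transcription factors were higher in the retina and 0 were lower (median log2 fold change 0.47). Ikbke, a kinase of IRF factors, rose from 0.767 ± 0.129 to 9.65 ± 1.74 CPM (log2 change 3.64 ± 0.28, edgeR adjusted p = 0.00010). Tirap, which brings Myd88 to Tlr2 and Tlr4, rose from 6.70 ± 0.805 to 22.2 ± 4.89 CPM (log2 change 1.73 ± 0.20, adjusted p = 0.00059). Nfkb1, a subunit of NF-kB, rose from 8.81 ± 0.718 to 24.8 ± 5.50 CPM and Pik3ap1, an adaptor to PI3 kinase, from 9.46 ± 0.581 to 18.2 ± 2.77 CPM. In the pericyte-labelled cells 8 of 23 were higher and 0 lower (median log2 fold change 0.09). Irf7, the interferon regulatory factor downstream of Tlr7, rose from 13.2 ± 0.979 to 115 ± 9.50 CPM (log2 change 3.12 ± 0.08, adjusted p = 2.9e-17). Nfkb1 rose from 89.4 ± 1.03 to 164 ± 4.58 CPM, Irf5 from 1.28 ± 0.112 to 4.94 ± 0.498 CPM and Rela, another NF-kB subunit, from 68.2 ± 2.25 to 96.1 ± 4.26 CPM.

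Negative regulators moved in both tables, and 1 of them moved in opposite directions. In the retina 3 of 7 tested were higher and 1 lower (median log2 fold change -0.0023), and in the pericyte-labelled cells 5 of 8 were higher and 0 lower (median 0.81). Tnfaip3 (A20), a ubiquitin-editing enzyme that restrains NF-kB, fell from 229 ± 6.88 to 122 ± 12.3 CPM in the retina (log2 change -0.90 ± 0.10, edgeR adjusted p = 0.00045). Of 6 rod genes, 0 were called higher and 5 lower in the retina (median log2 fold change -0.48), and their part in the fall of Tnfaip3 was not tested. In the pericyte-labelled cells Tnfaip3 rose from 21.0 ± 2.78 to 168 ± 9.34 CPM (log2 change 3.00 ± 0.08, adjusted p = 6.3e-17). The difference of the 2 effects was -3.91 ± 0.14 (limma voom adjusted p = 1.2e-10). Irak3, an inactive kinase that blocks the Myd88 complex, rose in both, from 0.433 ± 0.180 to 7.74 ± 1.63 CPM in the retina (log2 change 4.13 ± 0.36, adjusted p = 0.00015) and from 3.79 ± 0.375 to 14.6 ± 1.32 CPM in the pericyte-labelled cells (log2 change 1.95 ± 0.14, adjusted p = 6.2e-10). Tnip1, a partner of Tnfaip3, rose from 8.49 ± 1.69 to 19.6 ± 4.17 CPM in the retina and from 59.5 ± 2.28 to 149 ± 4.11 CPM in the other table. Socs1, an inhibitor of cytokine signalling, rose from 0.654 ± 0.294 to 1.97 ± 0.279 CPM in the retina (adjusted p = 0.029), a call lost when any 1 of PBS libraries 1 and 3 and vesicle libraries 1 and 2 was left out (adjusted p of 0.0719 to 0.112) or without the lens-rich libraries (0.121). In the pericyte-labelled cells Socs1 rose from 4.53 ± 1.00 to 12.0 ± 1.37 CPM (adjusted p = 1.1e-06).

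**Figure D4:**
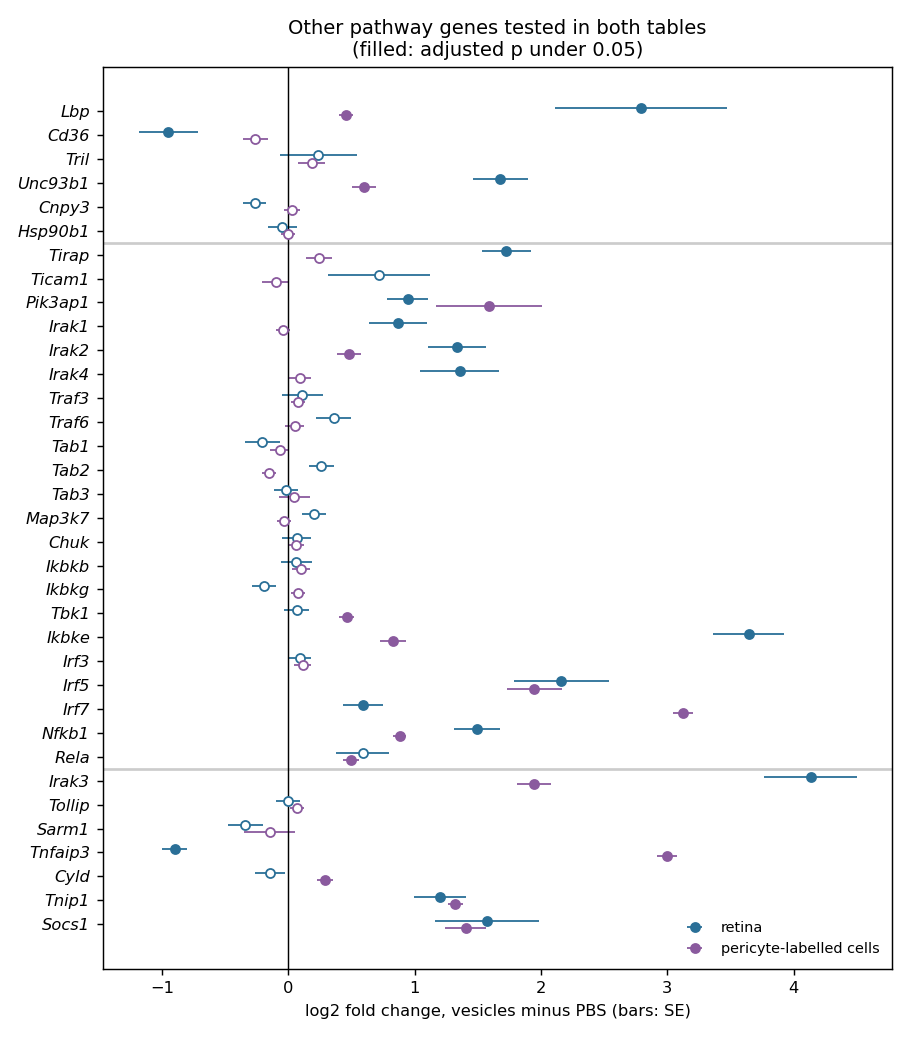
Log2 fold change, vesicles minus PBS, with SE, of the 35 other pathway genes tested in both tables, in the retina (blue) and the pericyte-labelled cells (purple), filled where the edgeR adjusted p was under 0.05. Lines part the ligand transfer and trafficking genes, the downstream genes and the negative regulators, and Tnfaip3 stands at -0.90 in the retina and 3.00 in the pericyte-labelled cells.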

How the data were processed

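Bulk RNA of 12 mouse libraries was measured. The authors deposited raw counts for every gene in a table for each tissue, whole numbers throughout. FastQC 0.11.8, HISAT2 2.0.5, featureCounts 1.5.0-p3 and limma are named in the submitters' processing notes. No source used here names the genome build. No value column was left unused. Names of pericyte columns match the sample descriptions, and retina columns were read as groups by inference from their short names, so library numbers there are column numbers.

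Tables were fitted separately with edgeR 4.0.16 (R 4.3.3), with filterByExpr at a minimum count of 10, TMM scaling and the robust quasi-likelihood F test, 2-sided, with Benjamini-Hochberg adjustment. CPM used TMM-scaled library sizes. SEs follow from the fold change and F (log2 change over root F). The difference between tables was fitted with limma 3.58.1 (voom, 1 weight per table). With 3 libraries against 3, the smallest 2-sided p of an exact permutation test is 0.1. Intervals and the 3-count floor cover counting error or library spread only. DESeq2 1.42.0, limma voom, RLE scaling, no filter, each library left out and a replicate block were alternatives. Replicates differed by more than sampling noise (lowest chi-squared per degree of freedom 6.12).

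Members and lists were chosen with earlier results of these data known. All 10 members are named, with up to 4 genes of each pathway list in order of p, and the 3 genes most like Tlr2 and Myd88. Marker genes were named, and the patterns by library described, after their values were seen. Promoters come from RefSeq (GRCm38.p6), exon lengths and transcripts from GENCODE M21, with all 10 IDs matched.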

Additional observations from a re-analysis of the deposited data

Results flagged for a closer look

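The vesicle effect differed between the retina and the pericyte-labelled cells by the joint limma (voom) test for 7 of the 10 genes and for Tnfaip3, here as retina minus pericyte-labelled cells on the log2 scale. It was larger in the retina for Tlr6 (5.05), Tlr13 (4.58), Tlr1 (3.03), Tlr4 (2.79), Cd14 (2.71) and Myd88 (1.00), and larger in the pericyte-labelled cells for Tlr3 (-1.54) and Tnfaip3 (-3.91). Tnfaip3 fell in the retina and rose in the pericyte-labelled cells. Of 6 rod genes, 5 were called lower in the retina too, and their part in that fall was not tested. Tissue, time after treatment, route and depth differ with the table and cannot be told apart from it.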

How the results depend on the processing

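In the retina 2449 genes were called, and 1328 to 2909 when 1 library was left out, with the lowest counts without PBS library 2 (1328), vesicle library 2 (1381) or vesicle library 1 (1401), and 1420 without the lens-rich libraries, an alternative chosen after seeing the data. The cause was not tested. The 7 genes called in the retina kept their calls in every alternative run, as did the 4 called in the pericyte-labelled cells. Exceptions among genes not called were Tlr13 in the pericyte-labelled cells, called lower without vesicle library 1 (log2 fold change -2.16, range -2.16 to -0.69 with 1 library left out), and among differences Myd88, lost without retina PBS library 2 (0.95, range 0.87 to 1.20). The genes called in the pericyte-labelled cells numbered 2412 to 3507. A replicate block there called 3287 genes against 3365 and 4 of the 10 genes, as without it. In the retina a block on the numbers in the column names, which no label ties to samples and which was added after seeing the data, called 1919 genes and 7 of the 10, and ended the calls of Cd36 (adjusted p = 0.0673), Lbp (0.0626) and Socs1 (0.0631). Same-numbered libraries did not deviate together in every pair (correlations 0.018, 0.027 and -0.024 in the pericyte-labelled cells, 0.21, -0.20 and -0.035 in the retina), so the numbers were not taken as pairs. Tlr7 and Ly96 in the retina and Tlr7 and Tlr13 in the pericyte-labelled cells had fewer than 50 counts in every library. Whether depth or the spread between libraries kept them from a call in the main fit was not tested. The PBS side of Tlr1, Tlr4, Tlr6 and Tlr13 in the retina, all called there, also rests on fewer than 50 counts in each library, as does that of Tlr2 in libraries 1 and 2.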
